A study of Mus musculus with 9 samples.

Results

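Semaphorins, their plexin receptors and the neuropilin co-receptors were followed across a knockdown of the glypicans Gpc4 and Gpc2 in the developing mouse cortex. The set holds 30 genes, 19 semaphorins, 9 plexins and 2 neuropilins, of 78275 gene IDs in the count table. They were chosen by name with earlier results of these data known, and the secreted Sema3g was not among them. All 30 passed the filter on low counts, which left 27773 genes for testing. Wild-type mouse embryos were electroporated in utero at E14.5 with a plasmid that carries mCherry and a microRNA-embedded hairpin. The mCherry-positive cells were sorted by flow cytometry 48 h later, at E16.5, and their RNA was sequenced. In the sh-Gpc4 group the hairpin was directed against Gpc4, in the sh-Gpc2 group against Gpc2, and in the sh-NT group it was scrambled, with 3 libraries each. All groups therefore share the surgery, the fluorescent protein and a hairpin, and the labels describe the sorted forebrain cells as cortical progenitors and neurons, a mixture of cell types.

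Semaphorins are secreted or membrane-bound guidance cues that steer axons and migrating neurons, mostly by repulsion and at times by attraction. They act through plexins, whose cytoplasmic domain switches off small GTPases of the Ras family and so loosens adhesion and remodels the cytoskeleton, while the secreted class 3 cues usually need a neuropilin to engage a plexin of the A family. In the embryonic cortex these genes are known for the radial migration and polarity of newborn neurons, for the course of callosal and corticofugal axons and for the arrangement of progenitors. Glypicans are heparan sulfate proteoglycans held at the cell surface by a lipid anchor, and the series asks how they affect cortical development.

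In sh-Gpc4 against sh-NT most of the ligands and receptors lay lower, with log2 fold changes below 0 for 17 of 19 semaphorins (median -0.49) and 9 of 11 plexins and neuropilins (median -0.36), against 47.2% of all genes tested, whose median was 0.02. Sema4c, Sema7a, Plxnb2 and Plxna1 were among those with the larger differences, at ratios between 0.422 and 0.585, whereas Sema3a, Nrp1 and Plxnc1 differed little and Sema3f lay higher. By the quasi-likelihood test of edgeR, no member and no other gene (0.00%) passed the adjusted threshold of 0.05. At an unadjusted p under 0.05 there were 9 members, where 9.57% of all genes had one. Of these, 8 lay lower, against 6.01% of all genes in that direction, and 1 lay higher, against 3.56%. The groups did not overlap for 16 members that lay lower, where the same held for 13.2% of all genes, and for 1 that lay higher, where it held for 10.8%. The median over all members was -0.42, and in sh-Gpc2 against sh-NT, where 26 of 30 lay below 0, it was -0.23. Both comparisons use the same sh-NT libraries, so they are not independent.

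The libraries held 48045603 to 66538437 reads assigned to genes. The columns of the count table number the libraries 1, 3 and 4 in sh-Gpc4 and 1, 2 and 4 in the other groups. The labels do not tie the libraries to separate animals or litters, and the p-values speak only of the spread among these libraries, which may be technical. Gpc4 was at 137, 99.9 and 129 CPM (counts scaled to a common library size) in sh-Gpc4 against 165, 188 and 175 CPM in sh-NT, which is -0.53 on the log2 scale (adjusted p = 0.488, edgeR). Gpc2 was at 167, 145 and 79.6 CPM in sh-Gpc2 against 199.7, 207 and 161 CPM in sh-NT, which is -0.54 (unadjusted p = 0.140, adjusted p = 0.968). In sh-Gpc4 Gpc2 was at 168, 70.3 and 96.6 CPM, which is -0.76 against sh-NT (unadjusted p = 0.0465, adjusted p = 0.488), and Gpc4 was at 145, 216 and 116 CPM in sh-Gpc2, which is -0.15 (unadjusted p = 0.503, adjusted p = 0.968). On the first principal component of the 11968 genes with a mean log2 CPM above 3, which took 71.6% of the variance, sh-Gpc4 library 3 (46.7) and sh-Gpc2 library 4 (36.6) stood apart, followed by sh-Gpc4 library 4 (15.8), with the other 6 libraries between -25.8 and -5.71. Markers of radial glia summed to 1613 to 2113 CPM in sh-Gpc4, 1903 to 2663 CPM in sh-Gpc2 and 1863 to 2010.1 CPM in sh-NT, and those of excitatory neurons to 4145 to 5012, 3982 to 4640.1 and 4217 to 5005 CPM. In sh-Gpc4 against sh-NT 7 of 9 radial glia markers (median log2 fold change -0.07) and 7 of 9 neuronal ones (-0.06) lay below 0, where 47.2% of all genes did. Of the radial glia markers 2 did not overlap, both lower, as for 13.2% of all genes. Against sh-Gpc2, 9 of 9 radial glia markers lay below 0, where 50.5% of all genes did. Microglial markers, all 10 of 10 detected, summed to 1162 to 1702.5 CPM in sh-Gpc4, 446 to 1535 CPM in sh-Gpc2 and 874 to 1329 CPM in sh-NT. Of these 10, 9 lay higher in sh-Gpc4 against sh-NT and 1 lower, with a median log2 fold change of 0.48. The groups did not overlap for 4 of them, all higher, as for 10.8% of all genes. The 5 mural cell markers summed to 9.31 to 14.3 CPM in sh-Gpc4, 9.01 to 22.3 CPM in sh-Gpc2 and 20.9 to 27.3 CPM in sh-NT, so by this sum sh-Gpc4 lay below sh-NT in every library. Of single markers, Pdgfrb and Notch3 did not overlap between these groups, while Rgs5, Kcnj8 and Anpep did. The 4 markers of oligodendrocyte precursors summed to 1.02 to 4.37 CPM in sh-Gpc4, 4.08 to 13.5 CPM in sh-Gpc2 and 4.59 to 14.9 CPM in sh-NT. Every sh-Gpc4 library was again lower than sh-NT, by the narrow step between 4.37 and 4.59 CPM. Olig1 overlapped, at 3.44 CPM in sh-Gpc4 library 1 and 2.83 CPM in sh-NT library 1. The 3 of these 4 markers that were tested had a median log2 fold change of -1.69 in sh-Gpc4 against sh-NT. Those of interneurons and ventral progenitors summed to 4.47 to 5.58 CPM in sh-Gpc4 and 6.66 to 9.38 CPM in sh-Gpc2. In sh-NT libraries 1, 2 and 4 they summed to 38.9, 7.32 and 4.71 CPM, with library 1 far above the others. The 6 tested had a median log2 fold change of -2.28 in sh-Gpc4 against sh-NT, which includes that library. Those of the endothelium summed to 67.7 to 82.2 CPM in sh-Gpc4, 74.8 to 96.6 CPM in sh-Gpc2 and 75.0 to 83.0 CPM in sh-NT. Slco1c1 alone made up 60.8 to 88.0 CPM of these sums. Cldn5, Flt1, Cdh5 and Tek were near the floor, at 1.13 CPM or less in every library. The median over 6 tested was -0.76 in sh-Gpc4 against sh-NT. No marker of these 7 lists was at 0 in all libraries. Their part in the results was not tested, and in bulk samples fewer cells of a type and less RNA per cell cannot be told apart.

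The same libraries that stood apart were those where the members were lowest. Relative to its mean over the 9 libraries, the median semaphorin stood, in log2 units, at -0.48 in sh-Gpc4 library 3 and at -0.41 in sh-Gpc2 library 4, and the median plexin or neuropilin at -0.32 and -0.44, while the median of all genes was at -0.00 and -0.01. In sh-Gpc4 libraries 1 and 4 the median semaphorin was at 0.01 and -0.22, in sh-Gpc2 libraries 1 and 2 at 0.16 and 0.09, and in the sh-NT libraries at 0.22, 0.34 and 0.19. Of the members, 8 semaphorins and 5 receptors had their lowest value in sh-Gpc4 library 3, and 5 semaphorins and 2 receptors in sh-Gpc2 library 4, where 22.6% and 11.6% of all genes had theirs.

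**Figure D1:**
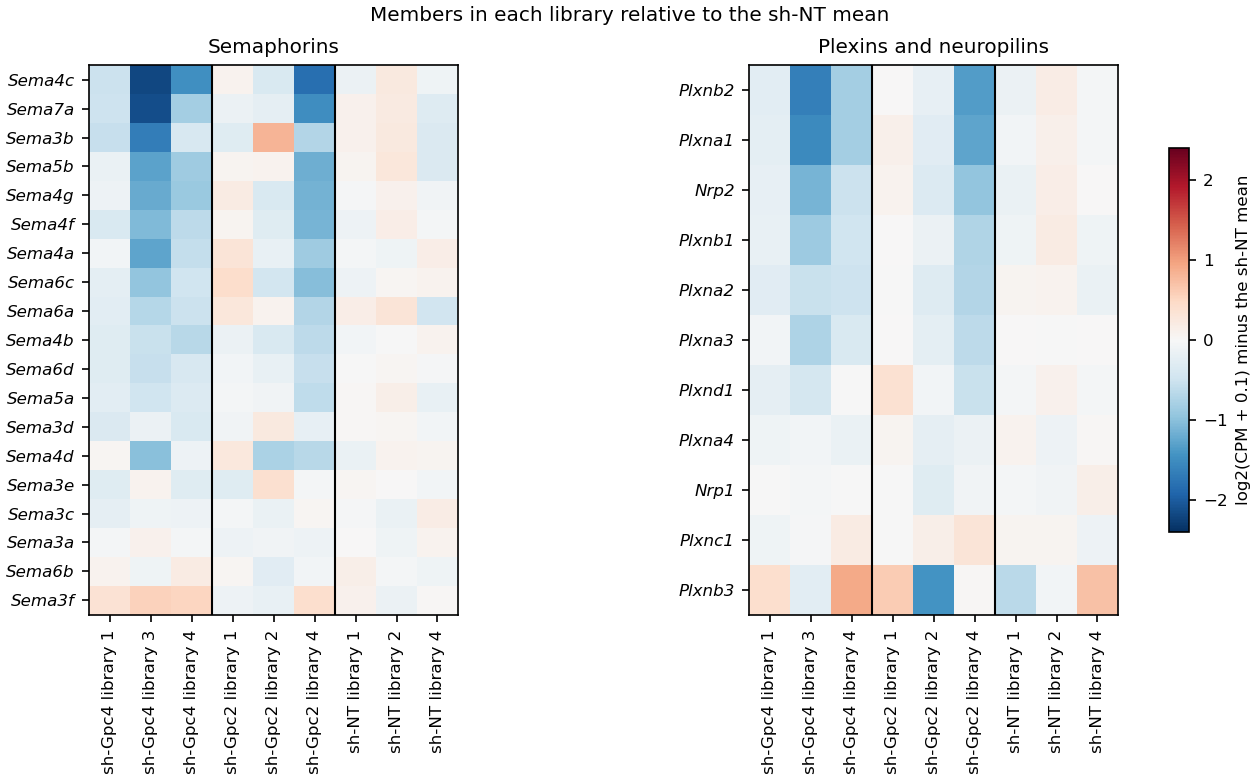
Log2 of the CPM of each of the 30 members in each of the 9 libraries relative to its mean in sh-NT, ligands and receptors in separate panels, sh-Gpc4, sh-Gpc2 and sh-NT from left to right; blue is lower and red higher. The columns of sh-Gpc4 library 3 and sh-Gpc2 library 4 are blue for most members, and Sema3a, Sema3c, Plxna4, Plxnc1 and Nrp1 stay near 0 in all columns.

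The members differ in base composition, and this property moved with the libraries. The longest annotated transcript of each member (GENCODE M21, build GRCm38) had between 39.2% (Sema3d) and 63.5% (Sema6b) G and C bases, with a median of 56.5% for the semaphorins and 55.0% for the plexins and neuropilins, against 48.9% for the tested genes that have a value. Stretches of 90 coding bases are given for members picked as examples. Sema4c (chromosome 1, coding bases 76 to 165) and Plxnb2 (chromosome 15, 199 to 288) had larger differences in sh-Gpc4. Sema3a (chromosome 5, 7 to 96) and Nrp1 (chromosome 8, 64 to 153) differed little. Each is the stretch, read in frame on the coding strand of the longest coding sequence, whose share of G and C is closest to the whole, which is 57.2% for Sema4c, 56.7% for Plxnb2, 45.8% for Sema3a and 49.5% for Nrp1. Other members went against this contrast. Sema3f, with 58.4% in its longest transcript, had a log2 fold change of 0.50 in sh-Gpc4 against sh-NT. Plxna2, with 49.7%, was at -0.43. Over all 30 members Pearson's r of that fold change with GC was -0.29. Capitals mark G and C.
Sema4c: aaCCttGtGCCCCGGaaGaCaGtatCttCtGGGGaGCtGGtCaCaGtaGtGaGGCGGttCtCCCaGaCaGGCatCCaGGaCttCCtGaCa
Plxnb2: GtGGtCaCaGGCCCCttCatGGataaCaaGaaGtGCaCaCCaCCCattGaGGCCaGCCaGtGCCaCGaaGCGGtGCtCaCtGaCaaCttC
Sema3a: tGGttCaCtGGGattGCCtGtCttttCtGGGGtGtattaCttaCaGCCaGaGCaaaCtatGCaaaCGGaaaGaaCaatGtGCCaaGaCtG
Nrp1: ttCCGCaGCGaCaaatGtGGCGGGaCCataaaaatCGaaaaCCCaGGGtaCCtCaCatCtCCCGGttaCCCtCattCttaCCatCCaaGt

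Per kilobase of the longest annotated transcript, the receptors led the set. Nrp1, the neuropilin through which Sema3a acts, was at 161 ± 12.2 RPKM (TMM-scaled CPM per kilobase, SD over 9 libraries) and was above every other member in all libraries, and Plxna2, a receptor of Sema6a and a partner of neuropilins, followed at 54.1 ± 10.2 RPKM. Plxnb2, the receptor of Sema4c and Sema4g in mouse brain, was at 32.0 ± 11.7 RPKM, in a range that overlapped that of Plxna2. Plxna4, Plxna3 and Plxnb1 lay between 8.68 and 12.3 RPKM and overlapped each other in that order. Nrp2, Plxna1 and Plxnc1 lay between 1.99 and 2.94 RPKM, below Plxnb1 in every library, and Plxnd1 and Plxnb3 at 0.284 and 0.263 RPKM. With the length of all annotated exons in place of the longest transcript, Nrp1 was at 60 RPKM and still led, while Plxna1 and Plxnc1 moved ahead of Nrp2.

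Among the ligands the secreted Sema3c, an attractant and repellent of cortical axons, led with 38.6 ± 3.33 RPKM and did not overlap the next, Sema6d, at 20.5 ± 3.18 RPKM. Sema3a at 18.9, Sema5b at 17 and Sema5a at 15.7 RPKM followed with ranges that overlapped their neighbours, and with all annotated exons their order was Sema5b, Sema5a and Sema3a. Sema4c (8.70 RPKM), Sema4d (6.79), Sema4b (5.10), Sema4g (5.08) and Sema4a (3.57) made up the middle of the order. Sema6a, Sema4f and Sema7a lay between 1.74 and 2.28 RPKM. Sema6c, Sema3f, Sema3e, Sema3b, Sema6b and Sema3d lay below 1 RPKM, from 0.940 to 0.148. The lowest single counts of members were 29 reads for Plxnb3, 31 for Sema3b and 38 for Sema3d. The SD over the 9 libraries was 46.4% of the mean for Plxnb3, 49.3% for Sema3b and 14.9% for Sema3d.

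**Figure D2:**
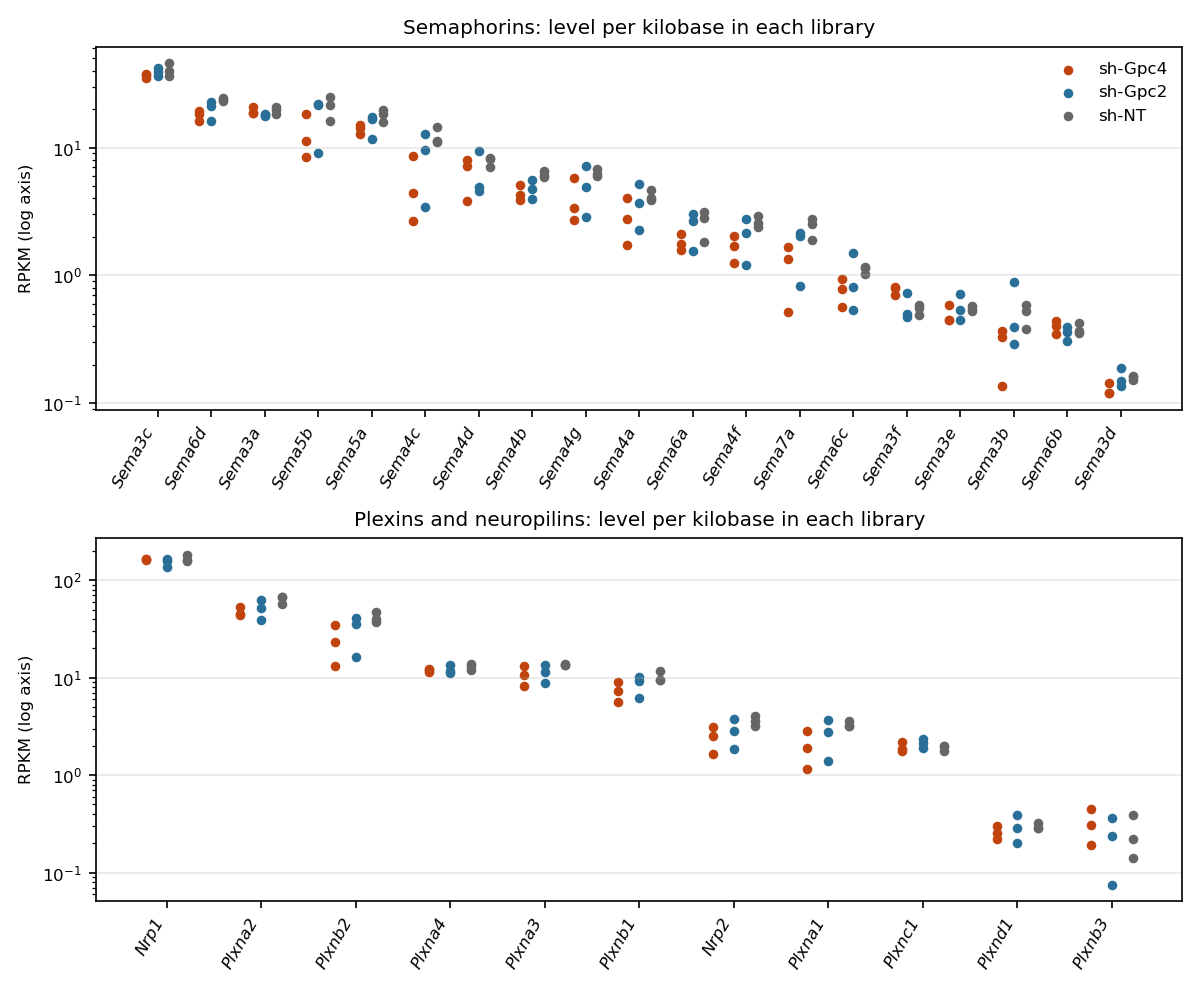
Level of each member in RPKM, which is CPM per kilobase of transcript, on a log axis, semaphorins in the upper panel and plexins and neuropilins in the lower, with 1 point per library coloured by group. Nrp1 at 161 RPKM stands above all others, and the levels span from there to 0.148 RPKM for Sema3d.

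Of the semaphorin classes, the secreted class 3 had the median log2 fold change closest to 0 in sh-Gpc4 against sh-NT, at -0.15, with 5 of 6 members below 0. Sema3g, a class 3 gene outside the set, was at -0.68 there (SE 0.43, unadjusted p = 0.143 in edgeR). Sema3a, Sema3c, Sema3d and Sema3e have the lowest share of G and C of the semaphorins, 39.2% to 42.7%. With a GC trend removed (below), Sema3a was at -0.13, Sema3c at -0.26, Sema3d at -0.47 and Sema3e at -0.27. Sema3f was then at 0.87 and Sema3b at -0.60. The part of GC in the order of the classes was not tested. Sema3f, a repellent that acts through Nrp2 (ENSMUSG00000034684, GRCm38 chromosome 9, 107681500 to 107710475, minus strand), was at 2.38, 2.74 and 2.70 CPM in sh-Gpc4, 1.68, 1.61 and 2.46 CPM in sh-Gpc2 and 1.98, 1.67 and 1.89 CPM in sh-NT. Every sh-Gpc4 library lay above every sh-NT library, and sh-Gpc2 library 4 lay within the range of sh-Gpc4. Its counts were low, at 95 to 183 reads per library, so counting error is part of its spread. The log2 fold change in sh-Gpc4 against sh-NT was 0.50 (SE 0.19, 95% interval 0.06 to 0.93), with unadjusted p = 0.0287 and adjusted p = 0.488 in edgeR. The exact two-sided permutation p was 0.1, the smallest that 3 against 3 libraries allow, as for each member whose groups did not overlap.

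Sema3b, another ligand of neuropilins, was at 1.12, 0.465 and 1.27 CPM in sh-Gpc4 and 1.8, 2.01 and 1.31 CPM in sh-NT. The groups were set apart by the narrow step between 1.27 and 1.31 CPM, while sh-Gpc2 library 2, at 3.03 CPM, was the highest of all. The log2 fold change in sh-Gpc4 against sh-NT was -0.85 (SE 0.46, unadjusted p = 0.0962, adjusted p = 0.488 in edgeR), and -0.50 without sh-Gpc4 library 3. Sema3d was at 0.759, 0.900 and 0.751 CPM in sh-Gpc4 and 1.01, 1.03 and 0.955 CPM in sh-NT, also without overlap, at a log2 fold change of -0.31 (SE 0.19, unadjusted p = 0.129, adjusted p = 0.495). The abundant Sema3a, which repels axons and orients migrating neurons, was at 111, 123 and 111 CPM in sh-Gpc4, 106, 109 and 105 CPM in sh-Gpc2 and 116, 108 and 122 CPM in sh-NT. All 9 libraries lay within 1.17 times of each other, and the ranges of sh-Gpc4 and sh-NT overlapped. Sema3c ran from 191 to 205 CPM in sh-Gpc4, 197 to 229 CPM in sh-Gpc2 and 199 to 249.6 CPM in sh-NT, and Sema3e, the ligand of Plxnd1, from 3.06 to 4.0, 3.04 to 4.94 and 3.61 to 3.91 CPM. Both overlapped between all groups.

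The membrane-bound class 4 semaphorins, which bind plexins of the B and D families without a neuropilin, were all 6 of 6 at a negative log2 fold change in sh-Gpc4 against sh-NT, with a median of -0.62. Sema4c (ENSMUSG00000026121, GRCm38 chromosome 1, 36548639 to 36558349, minus strand), the ligand of Plxnb2, was at 33.2, 10.4 and 17 CPM in sh-Gpc4, 50.1, 37.0 and 13.4 CPM in sh-Gpc2 and 43.3, 56.2 and 44.0 CPM in sh-NT. It was lowest in the libraries that stood apart, and sh-Gpc4 library 1 lay below sh-NT as well. The log2 fold change in sh-Gpc4 against sh-NT was -1.24 (SE 0.49, 95% interval -2.34 to -0.15, unadjusted p = 0.0299, adjusted p = 0.488 in edgeR). With library 3 of that group left out it was -0.93. An antisense transcript, D430040D24Rik, overlaps 7.27% of the exon bases of Sema4c, and the sources used here do not say whether counting used strand.

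Sema4b (ENSMUSG00000030539, GRCm38 chromosome 7, 80186841 to 80226527, plus strand) had the smallest p of the ligands against sh-NT for both hairpins. It was at 19.9, 16.7 and 15.2 CPM in sh-Gpc4, 22.1, 18.8 and 15.7 CPM in sh-Gpc2 and 23.1, 24.1 and 25.7 CPM in sh-NT. All 6 libraries with a hairpin against a glypican lay below all 3 sh-NT libraries. Against sh-NT, its log2 fold change in sh-Gpc4 was -0.49 (SE 0.15, 95% interval -0.83 to -0.15, unadjusted p = 0.00929, adjusted p = 0.488 in edgeR), and without sh-Gpc4 library 3 it was -0.46.

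Sema4f was at 8.23, 5.10 and 6.92 CPM in sh-Gpc4 and 9.83, 11.9 and 10.4 CPM in sh-NT, at a log2 fold change of -0.67 (SE 0.28, unadjusted p = 0.0406, adjusted p = 0.488 in edgeR). Sema4g, which binds Plxnb2, was at 26.2, 12.3 and 15.4 CPM in sh-Gpc4 and 28.0, 30.9 and 27.2 CPM in sh-NT, also at -0.67 (SE 0.34, unadjusted p = 0.0766, adjusted p = 0.488), and at -1.05 without sh-Gpc4 library 1. Neither overlapped between these groups, while both overlapped between sh-Gpc2 (4.88 to 11.2 CPM and 13 to 32.8 CPM) and sh-NT. Sema4d, the ligand of Plxnb1 known also from lymphocytes, ran from 17.2 to 35.9 CPM in sh-Gpc4, 20.4 to 41.7 CPM in sh-Gpc2 and 31.3 to 37.1 CPM in sh-NT. Sema4a ran from 5.49 to 12.8 CPM, 7.30 to 16.6 CPM and 12.4 to 14.9 CPM in the same groups, so both overlapped.

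Class 5 semaphorins are transmembrane cues with thrombospondin repeats, and Sema5a is known to bind proteoglycan chains. Sema5a (ENSMUSG00000022231, GRCm38 chromosome 15, 32244810 to 32696341, plus strand) was at 161, 139 and 154 CPM in sh-Gpc4, 187, 181 and 126 CPM in sh-Gpc2 and 197, 214 and 170.4 CPM in sh-NT. No sh-Gpc4 library reached sh-NT, and the lowest value was that of sh-Gpc2 library 4. Against sh-NT, its log2 fold change in sh-Gpc4 was -0.36 (SE 0.15, 95% interval -0.70 to -0.01, unadjusted p = 0.0433, adjusted p = 0.488 in edgeR). Sema5b ranged over 38.8 to 84.7 CPM in sh-Gpc4, 42.3 to 102 CPM in sh-Gpc2 and 74.9 to 115 CPM in sh-NT, with overlap.

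In class 6, whose members bind plexins of the A family directly, Sema6d (ENSMUSG00000027200, GRCm38 chromosome 2, 124089969 to 124667770, plus strand), a ligand of Plxna1, was at 125, 104 and 117 CPM in sh-Gpc4, 145, 135 and 104 CPM in sh-Gpc2 and 152, 158 and 149 CPM in sh-NT. Its sh-NT libraries lay close together and above all 6 others. The log2 fold change in sh-Gpc4 against sh-NT was -0.41 (SE 0.13, 95% interval -0.69 to -0.12, unadjusted p = 0.00973, adjusted p = 0.488 in edgeR), and -0.33 without sh-Gpc4 library 3. Sema6c, at 4.79, 2.86 and 4.01 CPM in sh-Gpc4 and 5.18, 5.81 and 5.96 CPM in sh-NT, did not overlap between these groups either and had a log2 fold change of -0.54 (SE 0.33, unadjusted p = 0.138, adjusted p = 0.502), or -0.35 without sh-Gpc4 library 3. Sema6a, which acts through Plxna2 and Plxna4, ran from 10.8 to 14.502 CPM in sh-Gpc4, 10.6 to 20.9 CPM in sh-Gpc2 and 12.5 to 21.5 CPM in sh-NT. Sema6b stayed between 1.15 and 1.63 CPM in all libraries.

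Sema7a (ENSMUSG00000038264, GRCm38 chromosome 9, 57940112 to 57962865, plus strand), like the glypicans held by a lipid anchor, signals through integrin beta 1 and Plxnc1. It was at 5.51, 1.69 and 4.40 CPM in sh-Gpc4, 7.08, 6.66 and 2.71 CPM in sh-Gpc2 and 8.35, 9.03 and 6.24 CPM in sh-NT. The sh-Gpc4 libraries all lay below sh-NT, and the lowest values were again in the libraries that stood apart. Against sh-NT, its log2 fold change in sh-Gpc4 was -1.03 (SE 0.44, 95% interval -2.02 to -0.03, unadjusted p = 0.0439, adjusted p = 0.488 in edgeR), and -0.66 without sh-Gpc4 library 3.

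**Figure D3:**
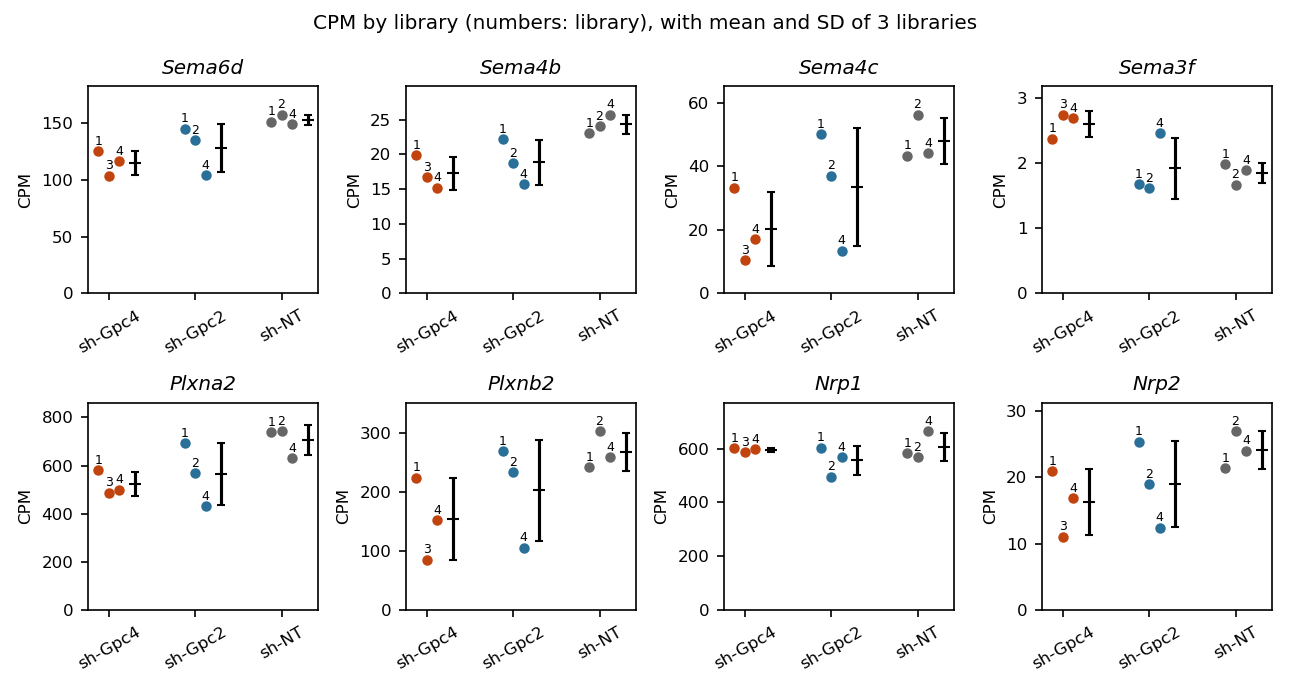
CPM of Sema6d, Sema4b, Sema4c, Sema3f, Plxna2, Plxnb2, Nrp1 and Nrp2, 1 panel each, with sh-Gpc4, sh-Gpc2 and sh-NT from left to right, 1 numbered point per library, and the mean and SD of 3 libraries as a bar beside the points. Every sh-Gpc4 library of Sema3f lies above sh-NT, the sh-Gpc4 and sh-NT libraries of Nrp1 overlap, and those of the other 6 members lie apart with sh-Gpc4 lower.

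All 4 plexins of the A family had a negative log2 fold change in sh-Gpc4 against sh-NT (median -0.40). Plxna2 (ENSMUSG00000026640, GRCm38 chromosome 1, 194618218 to 194816869, plus strand) was at 579.9, 487 and 499 CPM in sh-Gpc4, 693, 568 and 432 CPM in sh-Gpc2 and 738, 743 and 632 CPM in sh-NT. Each sh-Gpc4 library lay below each sh-NT library, and the lowest was sh-Gpc2 library 4. The log2 fold change in sh-Gpc4 against sh-NT was -0.43 (SE 0.16, 95% interval -0.79 to -0.07, unadjusted p = 0.0230, adjusted p = 0.488 in edgeR). Plxna1, a receptor of Sema6d and with neuropilins of class 3 cues, was at 25.6, 10.4 and 17.1 CPM in sh-Gpc4 and 28.9, 32.8 and 29.2 CPM in sh-NT, at -0.77 (SE 0.37, unadjusted p = 0.0622, adjusted p = 0.488) and at -0.50 without sh-Gpc4 library 3. An antisense transcript, Gm26811, overlaps 10.7% of its exon bases. Plxna3, a receptor for class 3 cues, was at 90.4, 56.7 and 73.4 CPM in sh-Gpc4 and at 95.1, 93.9 and 94.5 CPM in sh-NT, at -0.36 (SE 0.19, unadjusted p = 0.0821, adjusted p = 0.488 in edgeR) and at -0.20 without sh-Gpc4 library 3. Neither overlapped between sh-Gpc4 and sh-NT. Plxna4, a receptor of Sema3a and Sema6a, overlapped between all groups, at 148 to 158 CPM in sh-Gpc4, 143 to 173 CPM in sh-Gpc2 and 153 to 177 CPM in sh-NT.

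Of the B family, Plxnb2 and Plxnb1 had all sh-Gpc4 libraries below all sh-NT libraries. Plxnb2 (ENSMUSG00000036606, GRCm38 chromosome 15, 89155549 to 89180788, minus strand), known for the proliferation and migration of neural progenitors, was at 224, 85.3 and 152 CPM in sh-Gpc4, 269, 233 and 105 CPM in sh-Gpc2 and 241, 303 and 258 CPM in sh-NT. Of the sh-Gpc4 libraries, library 1 lay just below sh-NT and library 3 was the lowest of all 9. Against sh-NT, its log2 fold change in sh-Gpc4 was -0.80 (SE 0.38, 95% interval -1.65 to 0.05, unadjusted p = 0.0617, adjusted p = 0.488 in edgeR), and -0.50 without sh-Gpc4 library 3. Plxnb1, the receptor of Sema4d, was at 77.7, 48.3 and 63.0 CPM in sh-Gpc4 and 82.5, 100.5 and 82.5 CPM in sh-NT, at -0.49 (SE 0.21, unadjusted p = 0.0458, adjusted p = 0.488) and at -0.32 without sh-Gpc4 library 3. Plxnb3, a receptor of Sema5a, was scarce and spread widely, from 1.18 to 2.80 CPM in sh-Gpc4, 0.468 to 2.24 CPM in sh-Gpc2 and 0.885 to 2.41 CPM in sh-NT.

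The remaining receptors were the single plexins of the C and D families and the neuropilins. Plxnc1, the receptor of Sema7a, ran from 13 to 15.9 CPM in sh-Gpc4, 13.8 to 17.3 CPM in sh-Gpc2 and 12.8 to 14.6 CPM in sh-NT, and Plxnd1, which binds Sema3e directly, from 1.53 to 2.06, 1.40 to 2.70 and 2.0 to 2.24 CPM. Both overlapped. Nrp1 was at 603, 587 and 599 CPM in sh-Gpc4, 605, 497 and 570.2 CPM in sh-Gpc2 and 584, 569 and 666 CPM in sh-NT, with the sh-Gpc4 libraries inside the range of sh-NT. Nrp2, the co-receptor of Sema3f, was at 21, 11.1 and 16.9 CPM in sh-Gpc4 and 21.4, 27 and 24 CPM in sh-NT. Its groups were separated by the narrow step between 21 and 21.4 CPM, at a log2 fold change of -0.57 (SE 0.28, unadjusted p = 0.0725, adjusted p = 0.488 in edgeR), and -0.34 without sh-Gpc4 library 3. Ligand and receptor pairs thus included cases where both lay lower in sh-Gpc4, such as Sema4c and Plxnb2, and cases where they went apart, such as Sema3f and Nrp2, and no test of pairs was made.

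**Figure D4:**
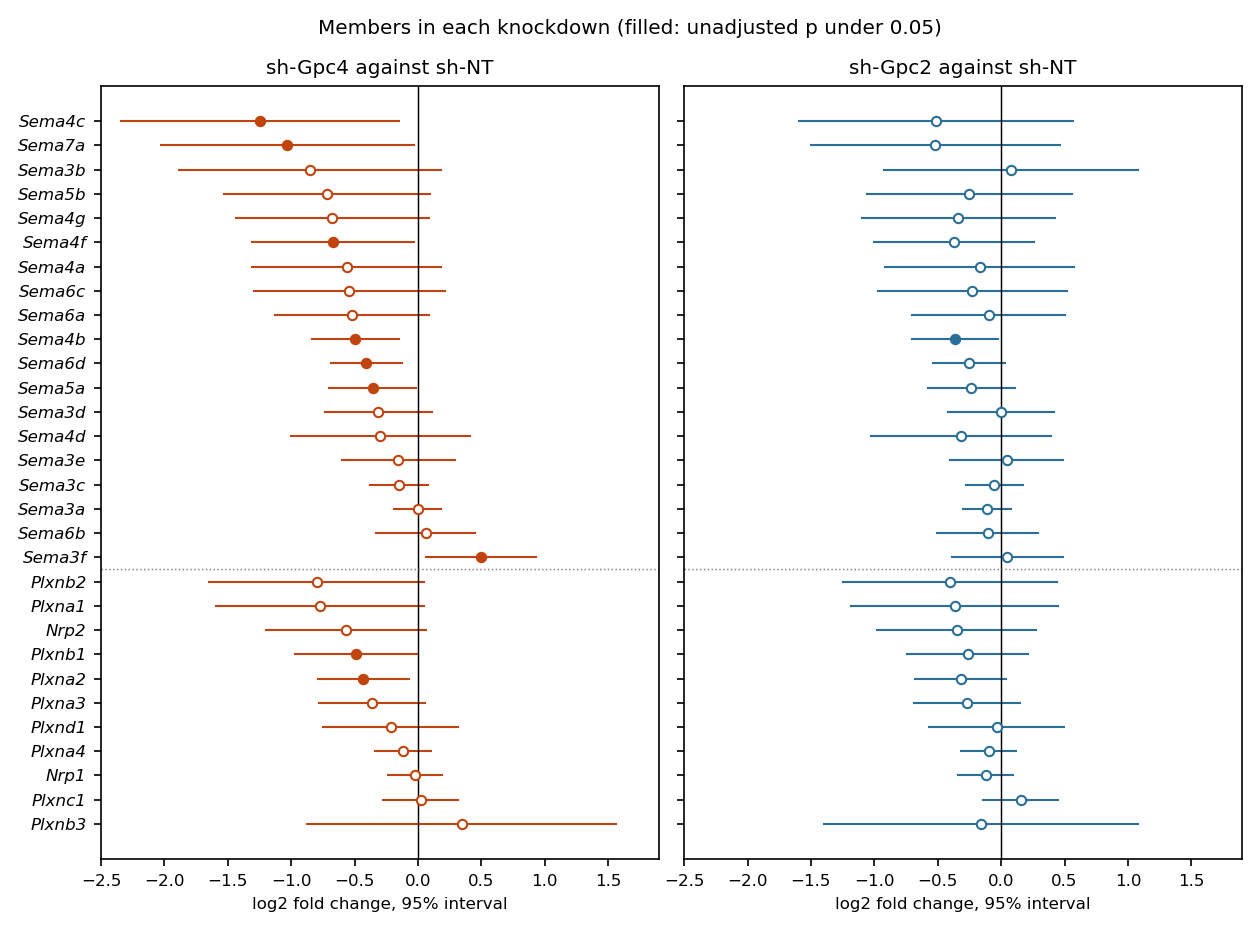
Log2 fold change of each member with its 95% interval from edgeR, for sh-Gpc4 over sh-NT in the left panel and sh-Gpc2 over sh-NT in the right, filled where the unadjusted p was under 0.05. In sh-Gpc4 against sh-NT 26 of 30 estimates lie below 0 and the intervals of 9 members leave out 0 before adjustment over all genes, with Sema3f alone on the higher side.

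In sh-Gpc2 against sh-NT, 26 of 30 members had a log2 fold change below 0, where 49.3% of all genes did, with a median of -0.23 for the semaphorins and -0.26 for the plexins and neuropilins against 0.00 for all genes. Sema4b alone had an unadjusted p under 0.05, where 2.56% of all genes had one in either direction, 0.947% on the lower and 1.62% on the higher side. Sema4b and Sema6d did not overlap between the groups, both lower, as was the case for 4.11% of all genes, and 0 members did so on the higher side, against 3.59%. Sema4b averaged 18.9 ± 3.23 CPM in sh-Gpc2 and 24.3 ± 1.33 CPM in sh-NT (SD, n = 3 each), which is -0.37 on the log2 scale (SE 0.15, 95% interval -0.71 to -0.02, unadjusted p = 0.0380, adjusted p = 0.968 in edgeR). Sema6d averaged 128 ± 21.3 CPM in sh-Gpc2 and 153 ± 4.37 CPM in sh-NT, at -0.25 (SE 0.13, unadjusted p = 0.0740, adjusted p = 0.968), and at -0.12 without sh-Gpc2 library 4.

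Of the receptors in sh-Gpc2 against sh-NT, Plxna2 had the smallest p, at 564 ± 131 CPM in sh-Gpc2 and 704 ± 62.5 CPM in sh-NT and a log2 fold change of -0.32 (SE 0.16, unadjusted p = 0.0746, adjusted p = 0.968 in edgeR, exact permutation p = 0.2), which was -0.49 without sh-Gpc2 library 1 and -0.16 without sh-Gpc2 library 4. Nrp1 stood at -0.12 (SE 0.10, 95% interval -0.34 to 0.09, unadjusted p = 0.237, exact permutation p = 0.5), with 557 ± 55.1 CPM in sh-Gpc2 and 606 ± 52.4 CPM in sh-NT. No member and no other gene passed the adjusted threshold (0.00%). The class 3 ligands of the set had a median of 0.02, with 3 of 6 on each side of 0, while Sema3g, outside the set, was at -0.86. All 6 of class 4 lay below 0 with a median of -0.35. Much of this rested on sh-Gpc2 library 4. Without it and sh-Gpc4 library 3, the medians were -0.11 for the semaphorins and -0.11 for the plexins and neuropilins, and 21 of 30 members lay below 0, with 0 at an unadjusted p under 0.05, where 2.34% of all genes had one. Without sh-Gpc2 library 1 there were 6 such members, all lower, where 5.94% of all genes had one and 2.98% on the lower side, and without any 1 of sh-Gpc2 libraries 2 and 4 and the 3 sh-NT libraries there were 0.

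Directly between the knockdown groups, 24 of 30 members were lower in sh-Gpc4, where 50.5% of all genes did, with medians of -0.30 for the semaphorins and -0.13 for the plexins and neuropilins. Sema3f alone had an unadjusted p under 0.05, where 2.89% of all genes had one and 1.09% on the higher side. It averaged 2.61 ± 0.199 CPM in sh-Gpc4 and 1.92 ± 0.473 CPM in sh-Gpc2, a difference of 0.45 on the log2 scale (SE 0.19, 95% interval 0.01 to 0.88, unadjusted p = 0.0445, adjusted p = 0.966 in edgeR, exact permutation p = 0.2). The libraries did not overlap for Sema3a alone, at 115 ± 7.11 CPM in sh-Gpc4 and 107 ± 2.12 CPM in sh-Gpc2, as for 3.50% of all genes on the higher side. Its log2 fold change was 0.11 (SE 0.08, 95% interval -0.08 to 0.30, unadjusted p = 0.231, adjusted p = 0.966), and 0.05 without sh-Gpc4 library 3. No member and no other gene passed the adjusted threshold (0.00%). Without sh-Gpc2 library 1 the median of the semaphorins was -0.06 and that of the plexins and neuropilins 0.06. Without sh-Gpc2 library 4 there were 11 members at an unadjusted p under 0.05, 10 of them lower, where 12.8% of all genes had one and 8.85% on the lower side. There were 3 without sh-Gpc4 library 1, where 5.24% of all genes had one, and 0 without any 1 of the other 7 libraries.

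The libraries that stood apart were left out together, an alternative chosen after seeing the data. In sh-Gpc4 against sh-NT, 26 of 30 members then lay below 0, with medians of -0.37 for the semaphorins and -0.22 for the plexins and neuropilins. At an unadjusted p under 0.05 there were 12 members, 11 of them lower, where 9.77% of all genes had one in either direction and 7.45% on the lower side. Sema6d was at -0.35 and Sema4b at -0.48, Sema4c at -0.94, Sema7a at -0.68, Plxnb2 at -0.52 and Plxna2 at -0.39, and Sema3f at 0.45. The smallest adjusted p of a member in edgeR was 0.279. Leaving out single libraries moved the number of members at an unadjusted p under 0.05 from 9 to between 2 and 16. It was 2 without sh-Gpc4 library 3, where 3.85% of all genes had one, 2 without sh-Gpc4 library 4 (6.91%), 2 without sh-NT library 2 (4.16%), and 16 without sh-Gpc4 library 1 (15.8%) and without sh-Gpc2 library 4 (16.2%).

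Base composition moved with the same libraries. A GC value was at hand for 22126 of the 27773 genes tested, or 79.7%, which is too few for a check over all of them, so that check is void and the values are those of the 22126 genes alone. For the 4425 genes with the highest share of G and C, above 54.9%, the median log2 deviation was -0.35 in sh-Gpc4 library 3 and -0.22 in sh-Gpc2 library 4, against 0.10 to 0.15 in the sh-NT libraries, and their median log2 fold change in sh-Gpc4 against sh-NT was -0.23. Of the 30 members, all with a GC value, 17 are above 54.9%, 11 semaphorins and 6 receptors. In sh-Gpc4 against sh-NT, 14 of these 17 had a negative log2 fold change, with a median of -0.56, where 71.1% of the 4425 genes did. Of the other 13 members, 12 had one, with a median of -0.30, where 41.3% of the other 17701 genes did, with a median of 0.06. Sema3f and Sema6b, with 58.4% and 63.5%, lay against this order, as did Sema3d, with 39.2% and a log2 fold change of -0.31. Across the 30 members Pearson's r of the log2 fold change with GC was -0.29 in sh-Gpc4 and -0.36 in sh-Gpc2 against sh-NT, a description only, since members share their libraries. Transcript length moved with these libraries too, by less. For the 4423 genes with the longest transcripts the median log2 deviation was -0.08 in sh-Gpc4 library 3 and -0.09 in sh-Gpc2 library 4. It was 0.05 to 0.08 in the sh-NT libraries. The median transcript had 6073.5 bases for the members and 2655 for the genes tested that have a value.

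With a smooth trend on GC removed from each library, also chosen after seeing the data, 25 of 30 members lay below 0 in sh-Gpc4 against sh-NT, with medians of -0.38 for the semaphorins and -0.16 for the plexins and neuropilins. At an unadjusted p under 0.05 there were 8 members, where 11.4% of the 22126 genes had one, and 7 of them lay lower, where 6.47% did. The lower ones were Sema6d (-0.39), Plxna2 (-0.40), Sema5a (-0.41), Sema4c (-1.01), Sema7a (-0.78), Plxnb2 (-0.55) and Sema3c (-0.26), and Sema3f was at 0.87. Of these, Plxnb2 and Sema3c had an unadjusted p under 0.05 here but not in the main fit. Sema4b was at -0.20 (unadjusted p = 0.166), Plxnb1 at -0.19 (unadjusted p = 0.101) and Sema4f at -0.38 (unadjusted p = 0.0556), so these 3 no longer had an unadjusted p under 0.05. Sema4g was at -0.40, and Sema6c and Plxna3 were at -0.16 each. No member passed the adjusted threshold (smallest adjusted p of 0.429 in edgeR). In sh-Gpc2 against sh-NT 24 of 30 lay below 0 with 0 at an unadjusted p under 0.05, where 2.71% of the genes had one.

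**Figure D5:**
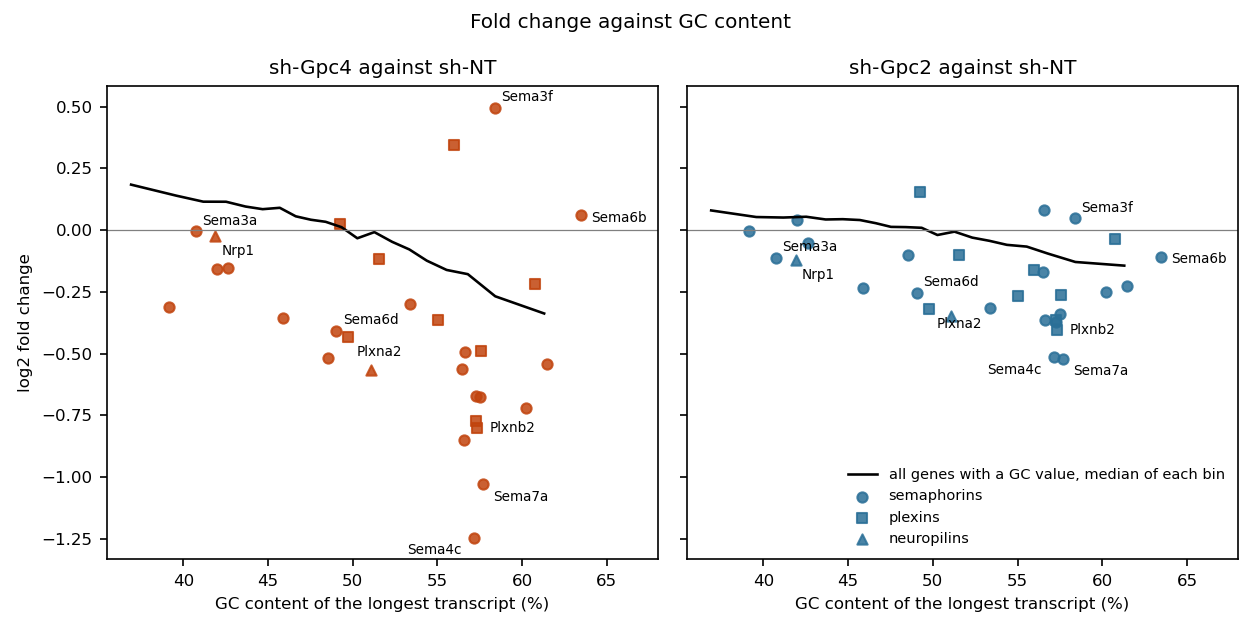
Log2 fold change of the 30 members (circles for semaphorins, squares for plexins, triangles for neuropilins) against the G and C share of the longest transcript in percent, in sh-Gpc4 against sh-NT on the left and sh-Gpc2 against sh-NT on the right, with the median of 20 bins of the 22126 genes as a line. The line falls with rising GC, more steeply on the left, and most members above 54.9% lie below it, with Sema3f, Sema6b, Plxnb3 and Plxnd1 above it on the left.

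Genes that carry the semaphorin signal inside the cell or act beside the plexins were read from a list of 40 other genes, all of which were tested. In sh-Gpc4 against sh-NT 30 of 40 had a negative log2 fold change (median -0.18), where 47.2% of all genes did. At an unadjusted p under 0.05 there were 5 lower genes and 1 higher gene of the 40, where 6.01% and 3.56% of all genes were. All 9 of 9 co-receptors and other receptors were negative (median -0.39), as were 9 of 13 GTPases and their regulators (median -0.18) and 11 of 17 adaptors, kinases and cytoskeletal proteins (median -0.12). Rac1, a GTPase that plexins of the B family bind, was at 107, 84.7 and 154 CPM in sh-Gpc4 and 195, 217 and 234 CPM in sh-NT, a log2 fold change of -0.90 (SE 0.26, unadjusted p = 0.00655, adjusted p = 0.488 in edgeR). Dpysl5, of the collapsin response mediator proteins that bind the cytoskeleton, was at 296, 96.4 and 133 CPM in sh-Gpc4 and 384, 469 and 360.0 CPM in sh-NT, at -1.21 (SE 0.51, unadjusted p = 0.0405, adjusted p = 0.488). Neither overlapped, and sh-Gpc2 library 4 was as low as sh-Gpc4, at 114 CPM for Rac1 and 100.7 CPM for Dpysl5.

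Itgb1, the integrin beta 1 to which Sema7a binds, averaged 150.2 ± 27.3 CPM in sh-Gpc4 and 192 ± 12.4 CPM in sh-NT, at -0.36 (SE 0.15, unadjusted p = 0.0420, adjusted p = 0.488 in edgeR), and its groups overlapped. In sh-Gpc2 against sh-NT 30 of 40 were negative (median -0.16), where 49.3% of all genes were, with 1 gene at an unadjusted p under 0.05, on the higher side, where 1.62% of all genes had one. This was Rras, a GTPase that plexins inactivate, at 1.2 ± 0.358 CPM in sh-Gpc2 and 0.785 ± 0.122 CPM in sh-NT (log2 fold change 0.62, SE 0.25, unadjusted p = 0.0343, adjusted p = 0.968 in edgeR). Farp2, an exchange factor tied to plexins of the A family, was at -0.23 (SE 0.11), the secreted Sema3g at -0.86 (SE 0.43) and below 1.2 CPM in every library, and Crmp1, a collapsin response mediator, at -0.19 (SE 0.11). Their unadjusted p values were 0.0580, 0.0781 and 0.115.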

How the data were processed

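RNA of 9 libraries was measured, 3 each of sh-Gpc4, sh-Gpc2 and sh-NT. A kit for small samples gave the RNA and a low-input kit the libraries, per the labels' protocols. The authors deposited raw read counts per gene ID, made with featureCounts of Subread on the builds GRCm38 and mm10, per the submitters' processing notes. The sources used here name no aligner, annotation release or version, nor the use of strand. Column names give the group but not the titled replicate. Symbols came from GENCODE M21, which matched 51486 of 78275 IDs (65.8%).

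Counts were tested as deposited in R 4.3.3 with the quasi-likelihood test of edgeR 4.0.16 (TMM, default filter, all 9 libraries, 1 coefficient per group), adjusted by Benjamini-Hochberg over 27773 genes, at a threshold of 0.05. Each SE was taken from the log2 fold change and the F statistic. Total counts were 48045603 to 66538437 reads assigned to genes, so counting error matters most for genes at a few CPM or less. RPKM used the longest GENCODE M21 transcript. The exact permutation test was run on CPM and was two-sided. The test was checked on simulated data. The members, the 40 pathway genes and the marker lists were chosen with earlier results of these data known. All 30 members are named, and fold changes with tests are given for those with an unadjusted p under 0.05 or no overlap between groups, and for the smallest p of each family against sh-NT; of the pathway genes, up to 4 with the smallest p were named, except 1 that is not reported here. Alternatives were DESeq2 1.42.0 (size factors, Wald test), limma 3.58.1 voom with sample weights, other filters, fits of 2 groups, each library left out and a replicate block. Removal of a GC spline with 6 degrees of freedom, exon-union length and leaving out 2 libraries were added after seeing the data.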

Additional observations from a re-analysis of the deposited data

How the results depend on the processing

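Members past the adjusted threshold numbered 0 in all 3 comparisons under every alternative run, and no member fold change printed with its p turned its direction under them. For sh-Gpc4 against sh-NT the DESeq2 Wald test called 45 genes, where edgeR called 0 (2657 at an unadjusted p under 0.05) and voom 0. None of the 45 was a member. The smallest adjusted p of a member there was 0.226 in DESeq2 and 0.0531 in voom. Members at an unadjusted p under 0.05 in sh-Gpc4 against sh-NT numbered 13 in DESeq2 (10.8% of all genes), 21 in voom (32.4%), 18 with only the 2 groups (17.4%), 18 with no filter (9.01%) and 9 in the main analysis (9.57%). Asking for over 5 CPM in 3 or more libraries left 23 members, 5 of them at that level (9.49%).

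The median of the semaphorins in sh-Gpc4 against sh-Gpc2, -0.30, was -0.055 without sh-Gpc2 library 1 and -0.066 with a replicate block by column number. The labels do not say what these numbers stand for. Number 3 occurs only in sh-Gpc4. The block therefore fits sh-Gpc4 library 3 exactly, and that library does not bear on the blocked fold changes. In deviations from the group mean, same-numbered libraries correlated at -0.10 to 0.68 and differently numbered ones at -0.87 to 0.83. With the block 26 of 30 members lay lower in sh-Gpc4 against sh-NT, 5 at an unadjusted p under 0.05 (3.62%), and 0 genes passed. There were 4 such members in sh-Gpc2 against sh-NT (5.21%) and 0 in sh-Gpc4 against sh-Gpc2 (1.60%). In sh-Gpc4 against sh-NT the block gave log2 fold changes of -0.19 for Sema3b, -0.21 for Sema5a and Plxna3, -0.26 for Plxnb1, -0.32 for Nrp2, -0.45 for Sema4f and Plxnb2, -0.48 for Plxna1 and -0.51 for Sema7a. With 1 library left out at a time, the semaphorin and receptor medians ran from -0.61 to -0.35 and -0.52 to -0.20 in sh-Gpc4 against sh-NT, -0.35 to -0.099 and -0.42 to -0.091 in sh-Gpc2 against sh-NT, and -0.40 to -0.055 and -0.27 to 0.06 in sh-Gpc4 against sh-Gpc2. Depth was least for Plxnb3, Sema3b and Sema3d, at 29, 31 and 38 reads in their lowest library.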
